A study of Mus musculus with 14 samples.

Results

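Collagens are secreted or membrane-bound proteins built from chains that wind into a triple helix, and each gene encodes 1 chain. The table of normalized expression held 15894 genes, and 34 of them encode a collagen chain, taken as every gene whose symbol is Col, a type number, a and a chain number. By class these were 8 fibrillar chains, 8 chains of basement membranes, 5 fibril-associated chains (FACIT), 3 transmembrane chains and 10 others, which were the beaded filament chains of collagen VI, the anchoring fibril chain Col7a1, the network chains of collagen VIII, and Col26a1. Chains outside the table, such as Col2a1 and Col10a1, were not analysed here. The study dissected the epicardium with the subepicardium, the outer layers of the heart, from E16.5 mouse hearts, ventral and dorsal sides apart, and sequenced poly(A) RNA from pools of 2 hearts. There were 3 female ventral and 3 female dorsal libraries (numbers 1 to 3), 4 male ventral libraries (4 to 7) and 3 male dorsal libraries (4 to 6). One further male library, number 7, carries labels that name it dorsal in its title and ventral in its tissue field, and was kept apart. All groups share the label Tbx18Cre, a line in which the Tbx18 locus drives Cre in the epicardium and its derivatives, whereas the study calls these hearts wild type. The hearts were untreated, and came from at least 3 litters.

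Fibrillar collagens assemble into the cross-banded fibrils that give connective tissue its tensile strength, and type I, made from the products of Col1a1 and Col1a2, is the main one of the heart. Type IV chains form the sheet-like network of basement membranes, on which epicardial, endothelial and muscle cells rest, and FACIT chains sit on the surface of fibrils. During development, cells that leave the epicardium become the fibroblasts that secrete much of the interstitial collagen of the heart.

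Some chains lie next to a partner in the genome, and the sequences at their starts are shown here because the partners share a start region or because the chain is one of those the results turn on. The letters are from RefSeq on the mouse build GRCm38.p6, plus strand, 5′ to 3′. A promoter entry was found for 27 of the 34 chains, and Col12a1, Col14a1, Col1a1, Col26a1, Col4a3, Col5a2 and Col9a3 had none. Capitals mark a pair of motifs on either strand, the TATA box (TATAAA) and the GC box (GGGCGG, or CCGCCC where it is on the minus strand), neither of which contains the other. The first 3 sequences are from fibrillar chains. Those of Col3a1 (chr1:45311288-45311537) and Col5a1 (chr2:27886175-27886424) are the 250 bases just before the start, and that of Col1a2 (chr6:4505370-4505492) is the longest run of those bases that no annotated exon covers, within the span of a longer annotated transcript of Col1a2. The fourth is the whole stretch between the divergent starts of the type IV chains Col4a4 and Col4a3 (chr1:82586850-82586920), and the fifth is the overlap between the first exons of Col4a1 and Col4a2 (chr8:11312805-11312826).
Col1a2: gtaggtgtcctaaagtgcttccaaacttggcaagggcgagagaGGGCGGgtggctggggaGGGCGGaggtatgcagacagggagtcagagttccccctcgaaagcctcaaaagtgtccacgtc
Col3a1: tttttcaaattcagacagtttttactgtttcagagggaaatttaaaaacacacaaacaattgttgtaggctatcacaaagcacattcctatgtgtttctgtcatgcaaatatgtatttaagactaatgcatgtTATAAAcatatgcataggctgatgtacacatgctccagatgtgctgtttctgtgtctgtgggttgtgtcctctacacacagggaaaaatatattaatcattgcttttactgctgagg
Col5a1: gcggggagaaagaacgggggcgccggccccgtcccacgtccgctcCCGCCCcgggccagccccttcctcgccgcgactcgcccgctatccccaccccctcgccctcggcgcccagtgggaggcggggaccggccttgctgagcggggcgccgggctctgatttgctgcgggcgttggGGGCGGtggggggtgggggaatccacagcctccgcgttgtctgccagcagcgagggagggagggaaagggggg
Col4a4 and Col4a3: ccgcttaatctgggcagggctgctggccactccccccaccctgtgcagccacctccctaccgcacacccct
Col4a1 and Col4a2: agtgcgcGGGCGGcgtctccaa

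The Col1a2 stretch held the GC box at 205 to 200 and at 188 to 183 bases before the start, and the Col5a1 stretch held it at 205 to 200 and at 73 to 68 bases before the start. The Col3a1 stretch held a TATA box at 117 to 112 bases before the start. The exon overlap of Col4a1 and Col4a2 held a GC box, and the stretch between Col4a4 and Col4a3 held neither motif. Over the 250 bases before the start, the GC box was found on either strand in 20 of the 27 chains with an entry and in 32.7% of all 32851 promoters. A chain counted where any of its entries held the motif, with repeated entries for Col18a1 and Col6a2. The shares over all promoters are by entry, not by gene. The motif CCAAT was found in 11 of the 27 chains and in 33.9% of all promoters, and the TATA box in 2 of the 27 chains, Col3a1 and Col13a1, against 12.4% of all. Between the starts of Col4a4 and Col4a3 lie 71 bases, between those of Col4a6 and Col4a5 on the X chromosome 1308 bases, and Col4a1 and Col4a2 overlap by 22 bases. Col3a1 and Col5a2 face each other on chromosome 1 across 24614 bases, and Col6a6, Col6a5 and Col6a4 follow each other on the minus strand of chromosome 9 with gaps of 27917 and 28810 bases.

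Depth was 13.9 to 25.2 M reads per library (median 20.4 M), and values here are normalized CPM, that is read counts scaled to an adjusted library size. Xist was at 45.5 to 152 in female and at 0.0193 to 7.07 in male libraries, and the Y-linked Kdm5d, Uty, Ddx3y and Eif2s3y were at most 1.27 in females and at least 9.08 in males. The 10 epicardial markers (Wt1, Tbx18, Upk3b and others) summed to 281 to 6080 normalized CPM over the libraries of known region, and no marker of the 10 cell type lists checked was at or under 3 reads in every library. Female dorsal 1 stood apart, with a summed level of 5 atrial muscle markers of 12463, against 1993 in female dorsal 2 and 493 to 1611 in the other libraries of known region. Male ventral 7 stood apart in other lists. Its 6 blood endothelial markers summed to 95.2, against 323 to 679 in the other libraries of known region. Its 3 erythroid markers summed to 291, against 33.6 to 122.

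Levels between genes are compared per kilobase of the longest annotated transcript. Averaged over the 13 libraries of known region, Col1a1 stood first with 749 normalized CPM per kilobase, followed by Col3a1 with 524 and Col1a2 with 516. Col3a1 encodes the only chain of type III collagen, which forms fibrils together with type I. The next chains were about an order of magnitude lower, namely Col6a1 at 67.9, Col6a2 at 51.8, Col4a1 at 39.6, Col14a1 at 31.1, Col5a2 at 30.9, Col4a2 at 28.7 and Col5a1 at 16.4. The 8 lowest chains, Col23a1, Col13a1, Col9a3, Col6a5, Col7a1, Col5a3, Col25a1 and Col6a4, lay between 0.0857 and 0.552 normalized CPM per kilobase. Thus the 3 transmembrane chains were among the lowest, whereas each other class held at least 1 of the 10 highest.

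**Figure D1:**
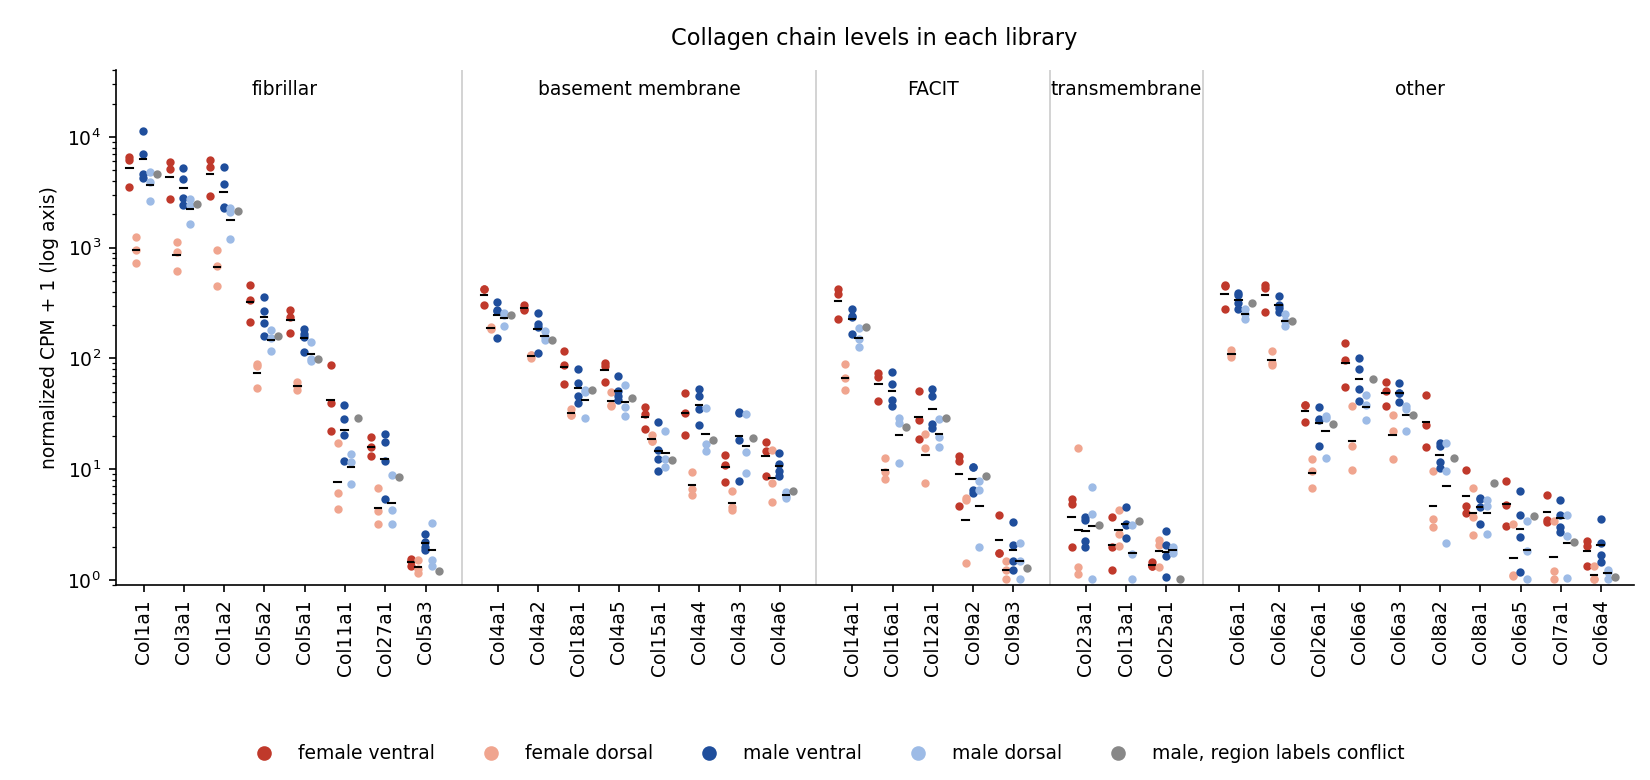
Normalized CPM plus 1 on a log axis for all 34 chains by class, with 1 point per library and a short bar at the mean of the log values of each group. Female ventral points sit above female dorsal points for most chains, for example 2935 to 6183 against 447 to 957 for Col1a2, and male points overlap for most chains.

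In females, most collagen chains were higher on the ventral side. limma on log2(value + 1), with Benjamini-Hochberg adjustment over all genes, called 23 of the 30 chains tested higher ventrally at an adjusted p under 0.05 and 0 lower (26 of 30 had an unadjusted p under 0.05, compared with 40.5% of all genes). The share called higher ventrally was 14.5% over all 14411 genes tested, and 13.3% were called higher dorsally. The median log2 difference of the tested chains was 1.72, against 0.01 over all genes. A chain was tested where it reached 1 normalized CPM in at least 3 of the 6 libraries, and Col5a3, Col9a3, Col25a1 and Col6a4 did not. The ventral mean was the higher one in 31 of all 34 chains, and without this filter 22 chains were called. Every ventral library lay above every dorsal library in 22 of the 30 chains tested, compared with 23.2% of all genes tested. edgeR on the whole reads recovered from the values called 22 chains, the count over all alternatives ran from 19 to 25, 18 chains were called under all 14 alternatives, and Col27a1 was called under the 13 in which it was tested. In tissue samples, fewer cells of a type and less RNA per cell cannot be told apart.

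**Figure D2:**
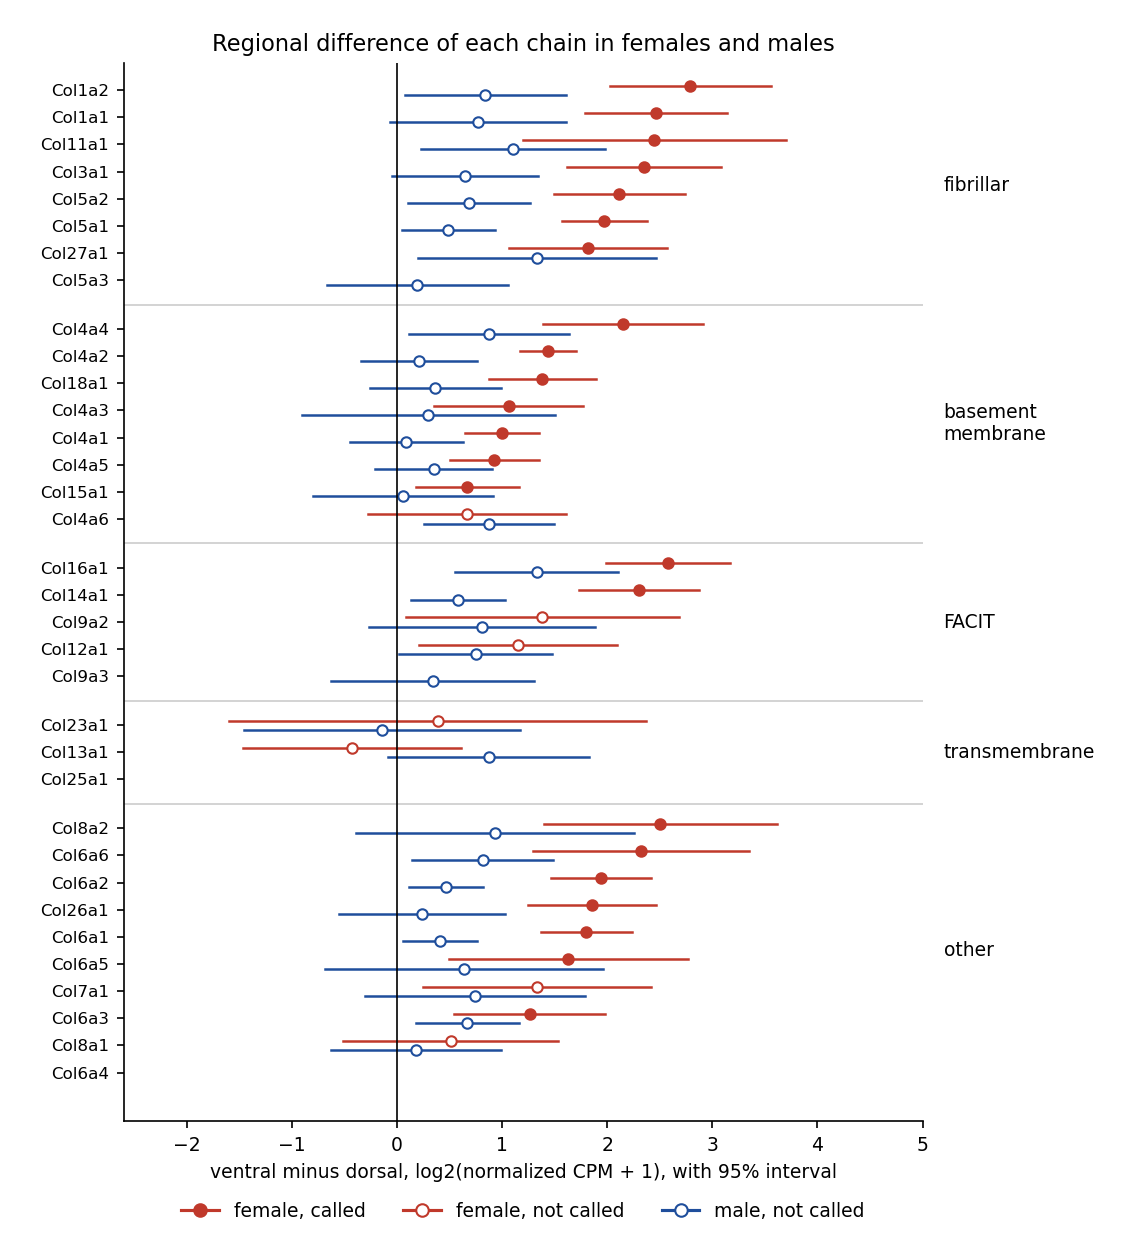
Log2 difference between ventral and dorsal libraries for each chain by class, with its 95% interval, in females (red) and males (blue). Filled points are called at an adjusted p under 0.05, which were 23 female and 0 male points; chains without a point were not tested in that sex.

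Of the fibrillar chains, 7 of 7 tested were called higher ventrally, with log2 differences of 1.82 to 2.79 (median 2.35). On GRCm38, Col1a2 (chr6:4504814-4541544, plus strand), the second chain of type I collagen, had values of 2935, 5384 and 6183 in the ventral and 687, 447 and 957 in the dorsal libraries. The lowest ventral library was well above the highest dorsal one, and the fitted difference was 6.92-fold (log2 difference 2.79, SE 0.34, adjusted p = 0.000830). Col1a1 (chr11:94936224-94953042, plus strand) was at 3511, 6189.8 and 6601 ventrally and 951, 725 and 1235 dorsally. Here too the groups did not overlap, and ventral library 1 was the lowest of its group for both type I chains (log2 difference 2.46, SE 0.30, adjusted p = 0.000823, 5.52-fold). Col3a1 (chr1:45311538-45349706, plus strand) was at 2769, 5159 and 5896 ventrally and 918, 611 and 1125 dorsally (log2 difference 2.35, SE 0.33, adjusted p = 0.00143). Its libraries kept the order seen for Col1a2, with dorsal library 2 the lowest of all. Type V chains join type I in the fibril and limit its width. Col5a2 (chr1:45374321-45503282, minus strand) had values of 212, 338 and 454 against 83.8, 52.5 and 87.9, and Col5a1 (chr2:27886425-28039514, plus strand) of 168, 272 and 235 against 55.8, 50.7 and 60.6, with log2 differences of 2.12 and 1.97 (adjusted p = 0.00111 and 0.000334). Relative to its mean, Col5a1 had the tightest dorsal group of the class, 55.7 ± 4.95 (SD, n = 3).

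The other fibrillar chains were at low levels. Col11a1 (chr3:114030540-114220718, plus strand), a chain of the cartilage fibril that is also made in the heart, had values of 21.1, 38.2 and 85.8 ventrally and 5.15, 3.35 and 16.3 dorsally (log2 difference 2.45, SE 0.56, adjusted p = 0.0115). Relative to their mean, its ventral values were more spread than those of type I, and ventral library 3 was the highest. Col27a1 (chr4:63214004-63334991, plus strand) was at 12.03, 18.3 and 14.8 against 3.16, 2.21 and 5.76 (log2 difference 1.82, SE 0.34, adjusted p = 0.00451). Col5a3, the third type V chain, was at 0.339 to 0.557 ventrally and 0.162 to 0.524 dorsally and was not tested in females. The 5 markers of chondrogenic or valve cells in the table summed to 45.4 to 58.7 ventrally and 26.2 to 114 dorsally, with 0 of 3 tested called.

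Among basement membrane chains, 7 of 8 were called higher ventrally, with a lower median log2 difference (1.03) than the fibrillar chains. The difference between these class medians was not tested. Col4a2 (chr8:11312805-11449287, plus strand), which pairs with Col4a1 in the type IV trimer found in nearly all basement membranes, was at 276, 299.8 and 273 ventrally and 106, 101 and 105 dorsally. These were tight, separate groups, and Col4a2 had the lowest adjusted p of any chain (log2 difference 1.44, SE 0.12, adjusted p = 0.000304, 2.71-fold). Its neighbour Col4a1 (chr8:11198423-11312826, minus strand) was at 300.2, 418 and 422 ventrally and 189, 183 and 191 dorsally (log2 difference 0.998, SE 0.16, adjusted p = 0.00246). Both dorsal groups were narrow, with an SD of 4.05 for Col4a1 and 2.90 for Col4a2. The widest regional difference of the class was that of Col4a4 (chr1:82448423-82586849, minus strand), a chain of the type IV network of kidney and other specialised membranes. It was at 19.3, 48.1 and 31.4 ventrally and 5.66, 4.82 and 8.51 dorsally (log2 difference 2.15, SE 0.34, adjusted p = 0.00243). Col4a3 (chr1:82586921-82722059, plus strand), its partner across the 71 bases shown above, was at 6.65, 10.01 and 12.4 against 5.38, 3.57 and 3.27 (log2 difference 1.06, SE 0.32, adjusted p = 0.0339), without overlap but called in only 7 of 13 alternatives. Of the 60-base windows of Col4a3, 4.46% also match C430014B12Rik, so its count is less certain.

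The X-linked Col4a5 (chrX:141475385-141689234, plus strand) was at 60.8, 83.98 and 90.7 ventrally and 48.3, 36.6 and 37.1 dorsally (log2 difference 0.92, SE 0.19, adjusted p = 0.00704). Its divergent neighbour Col4a6 was at 7.75 to 16.6 ventrally and 4.002 to 14.02 dorsally, with overlapping groups, and was not called (log2 difference 0.66, SE 0.42, adjusted p = 0.269). Col18a1 and Col15a1 encode the multiplexins, proteoglycan collagens at the edge of basement membranes whose ends release the fragments endostatin and restin. Col18a1 (chr10:77052178-77166548, minus strand) was at 85.6, 114 and 57.7 against 29.7, 29.8 and 34.1 (log2 difference 1.38, SE 0.23, adjusted p = 0.00290). Col15a1 (chr4:47208161-47313167, plus strand) was at 35.7, 30.8 and 21.8 against 16.8, 17.1 and 19.4, the smallest called difference of all chains (log2 difference 0.67, SE 0.22, adjusted p = 0.0451), and was called in 6 of 14 alternatives.

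Of the FACIT chains, 2 of 4 tested were called higher ventrally. Col16a1 (chr4:130047840-130099283, plus strand) was at 40.3, 72.3 and 66.7 ventrally and 8.34, 7.16 and 11.6 dorsally, well apart in every library (log2 difference 2.58, SE 0.26, adjusted p = 0.000436, 5.98-fold). Col14a1 (chr15:55307750-55520803, plus strand), which lines fibril surfaces and is the most abundant chain of the class, was at 227, 381 and 418 against 65.3, 50.4 and 88.2 (log2 difference 2.30, SE 0.26, adjusted p = 0.000609, 4.94-fold). The stress-responsive fibril chain Col12a1 was at 17.9 to 49.7 ventrally and 6.56 to 19.7 dorsally, and its groups overlapped (log2 difference 1.15, SE 0.42, adjusted p = 0.0684). Col12a1 was called once library number entered the fit as a block (adjusted p = 0.0312). The type IX chains, known from cartilage, were low: Col9a2 was at 3.63 to 12.1 ventrally and 0.408 to 4.55 dorsally (log2 difference 1.38, SE 0.58, adjusted p = 0.102), and Col9a3, not tested, at 0.757 to 2.84 and 0.0272 to 0.485. Per kilobase, both type IX chains lay far below Col14a1. Of the windows of Col9a3, 4.62% also match Tcfl5.

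Among the other chains, 7 of 9 tested were called higher ventrally. Collagen VI forms beaded microfilaments around cells, from the products of Col6a1 and Col6a2 with a longer chain, such as Col6a3, Col6a5 or Col6a6. Col6a1 (chr10:76708792-76726168, minus strand) was at 279, 448 and 455 ventrally and 101, 109 and 119 dorsally, and Col6a2 (chr10:76595762-76623630, minus strand) at 264, 455 and 428 and 86.3, 89.4 and 115. The core chains thus had nearly the same pattern, with log2 differences of 1.80 (SE 0.19, adjusted p = 0.000515) and 1.94 (SE 0.21, adjusted p = 0.000571). Of the longer chains, Col6a6 (chr9:105687809-105828160, minus strand) was at 53.9, 96.6 and 136 against 15.1, 8.74 and 36.5 (log2 difference 2.32, SE 0.46, adjusted p = 0.00599), and Col6a3 (chr1:90765923-90843971, minus strand) at 36.4, 60.1 and 49.3 against 30.1, 11.2 and 20.9 (log2 difference 1.26, SE 0.32, adjusted p = 0.0183). Both had dorsal library 2 at the bottom, and their groups did not overlap. Per kilobase, Col6a3 was at 3.76 normalized CPM, far below Col6a1, and Col6a6 at 6.36. Col6a5 (chr9:105856078-105960643, minus strand) was at 3.78, 2.06 and 6.89 against 0.115, 0.0817 and 2.22 (log2 difference 1.63, SE 0.51, adjusted p = 0.0390), the only called chain whose groups overlapped. It was called in 7 of 13 alternatives, and 3.21% of its windows also match Col6a6. Col6a4 was at 0.325 to 1.23 ventrally and 0.0231 to 0.324 dorsally and was not tested.

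Col8a2 (chr4:126286793-126314330, plus strand), a short chain of the hexagonal networks found under endothelium, was at 14.9, 24.1 and 45.3 ventrally and 2.52, 1.99 and 8.61 dorsally (log2 difference 2.51, SE 0.50, adjusted p = 0.00598). Its partner Col8a1 had means of 5.18 ± 3.23 ventrally and 3.33 ± 2.14 dorsally and was not called (log2 difference 0.51, SE 0.46, adjusted p = 0.437). Col26a1 (chr5:136741759-136883209, minus strand) was at 25.5, 36.8 and 37.3 against 11.3, 5.80 and 8.61 (log2 difference 1.86, SE 0.27, adjusted p = 0.00185), separate in every library. The anchoring fibril chain Col7a1 was at 2.35 to 4.84 ventrally and 0.0272 to 2.42 dorsally (log2 difference 1.33, SE 0.48, adjusted p = 0.0661), and was called in the blocked fit (adjusted p = 0.0185). No transmembrane chain was called in females, of 2 tested. Col23a1 was at 4.36, 3.87 and 0.968 ventrally and 14.7, 0.299 and 0.125 dorsally, so that the highest value was that of dorsal library 1, the one with high atrial markers (log2 difference 0.39, SE 0.89, adjusted p = 0.775). Col13a1, found at cell adhesions and the neuromuscular junction, was at 0.235 to 2.71 and 1.01 to 3.26 (log2 difference −0.43, SE 0.46, adjusted p = 0.524), and Col25a1 was at 0.325 to 0.440 and 0.299 to 1.32 and was not tested.

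Markers of several cell types moved with the chains. The shares to set these counts against are those of all genes tested in females, 14.5% called higher ventrally and 13.3% lower. All 10 epicardial markers were called higher ventrally in females (median log2 difference 2.36), with summed levels of 1737 to 2826 ventrally and 281 to 633 dorsally. Of the 8 fibroblast markers, 5 were called higher and 0 lower (summed 2920 to 4218 against 1297 to 2544). Lymphatic endothelium had 5 of 7 marker rows called higher (400.4 to 2052 against 148 to 295) and macrophages 5 of 6 (149 to 283 against 51.0 to 85.7). For the 8 ventricular muscle markers, 1 was called higher and the sums overlapped (16273 to 22911 against 18993 to 30387). None of the 6 blood endothelial markers was called, of smooth muscle 1 of 6 was called higher and 3 lower, and 1 of 5 atrial and 1 of 3 erythroid markers were called lower. The part of these markers in the collagen differences was not tested. Without female dorsal 1, the library with the atrial markers, 22 chains were called higher ventrally.

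In males, limma called 0 of 32 chains tested, as it called 0% of all 14917 genes tested. edgeR also called 0 chains, and 14 of 32 had an unadjusted p under 0.05, compared with 14.0% of all genes. The direction was mostly the same: 31 of the 32 tested chains had a higher fitted ventral level, the ventral mean was higher in 33 of all 34, and the median log2 difference was 0.64, against 0.03 over all genes. Every ventral library lay above every dorsal library in 5 of the 32, compared with 6.18% of all genes. Col16a1 was at 41.4, 36.1, 74.7 and 57.1 ventrally and 10.4, 27.7 and 25.1 dorsally, the male difference with the smallest p of all chains (log2 difference 1.33, SE 0.35, adjusted p = 0.285). These groups did not overlap, and Col16a1 was the only chain called in the fit with library number as a block (log2 difference 1.27, SE 0.25, adjusted p = 0.0295), where 0.416% of all genes passed the test with a higher ventral level and 0.0939% with a higher dorsal one. With the GC and length trend removed as well, 0 chains were called, so Col16a1 was called in 1 of 17 male alternatives. Col1a2 was at 2290.4, 2328, 5313 and 3755 against 1208, 2090.3 and 2276 (log2 difference 0.84, SE 0.35, adjusted p = 0.325), and its ventral libraries all lay above the dorsal ones by a narrow margin. Col1a1 was at 4246, 4645, 11299.6 and 6953 against 2640.5, 3896 and 4849 (log2 difference 0.77, SE 0.38, adjusted p = 0.392), and Col3a1 at 2431, 2786, 5201 and 4169 against 1639.5, 2440.5 and 2743 (log2 difference 0.65, SE 0.31, adjusted p = 0.384). For both, at least 1 ventral library fell within the dorsal range, and ventral library 6 was the highest.

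The other chains without overlap in males were Col4a6, at 7.70, 10.2, 8.56 and 12.99 ventrally and 4.50, 5.19 and 4.77 dorsally (log2 difference 0.88, SE 0.28, adjusted p = 0.288), Col6a2, at 284, 264, 367 and 301 and 193, 249 and 216 (log2 difference 0.46, SE 0.16, adjusted p = 0.302), Col6a3, at 47.6, 58.7, 48.01 and 39.3 and 36.4, 34.1 and 21.2 (log2 difference 0.67, SE 0.22, adjusted p = 0.297), and the untested Col6a4. Class medians of the log2 difference were 0.73 for fibrillar, 0.32 for basement membrane, 0.75 for FACIT, 0.37 for transmembrane and 0.64 for other chains. The type IV chains Col4a1 and Col4a2 had the smallest differences among the 10 chains of highest level per kilobase, 0.089 (95% interval −0.44 to 0.62) and 0.21 (−0.34 to 0.76). Col4a1 was at 325, 272, 266 and 151 ventrally and 254, 244 and 195 dorsally, and ventral library 7 was the lowest of all. That library also had the low blood endothelial and high erythroid sums. Without it, the log2 difference was 0.32 for Col4a1 and 0.45 for Col4a2, and the cause was not tested. No marker list had a called gene in males, and the epicardial sums overlapped (1986 to 6080 ventrally, 1599.9 to 4311 dorsally).

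Whether the regional difference itself differed between the sexes was tested in 1 fit over all 13 libraries of known region. Each sex is a separate series of pool numbers, so sex and preparation cannot be told apart in this test. The ventral excess was called larger in females for 5 of 34 chains and larger in males for 0. Over all 15772 genes tested, these shares were 0.615% and 2.12%, and 2.73% in either direction. An unadjusted p under 0.05 was found for 15 of the 34 chains, compared with 2428 of the 15772 genes. The 5 were Col6a1 (log2 −1.39, SE 0.26, adjusted p = 0.00799), Col6a2 (−1.48, SE 0.28, adjusted p = 0.00830), Col5a1 (−1.49, SE 0.29, adjusted p = 0.0107), Col14a1 (−1.72, SE 0.35, adjusted p = 0.0152) and Col4a2 (−1.23, SE 0.30, adjusted p = 0.0430), where negative values mean a smaller ventral excess in males. For Col6a1, male libraries were at 276, 313, 385 and 376 ventrally and 250.3, 279.8 and 228 dorsally, against female values of 279 to 455 and 101 to 119. The female dorsal libraries were thus the low ones, below every male library of either region. The same held for Col6a2, Col5a1 (male values 166, 113, 183 and 157 ventrally and 97.6, 138 and 94.00 dorsally), Col14a1 (165, 237, 281 and 241 and 147, 186 and 127) and Col4a2 (257, 193, 204 and 110.4 and 155, 175 and 146). The test that picked these chains used the same values, and the share of all genes with this order of libraries was not taken. Col6a1, Col6a2 and Col5a1 kept their call in all 23 alternatives, Col14a1 in 22 and Col4a2 in 10. In the blocked fit 11 chains were called with a larger ventral excess in females, compared with 2.29% of all genes, and 0 with a larger one in males, compared with 2.81%. These were the same 5 with Col1a1 (−1.74, adjusted p = 0.0145), Col1a2 (−2.02, 0.00692), Col3a1 (−1.79, 0.0111), Col5a2 (−1.49, 0.0104), Col6a6 (−1.71, 0.0166) and Col26a1 (−1.66, 0.0178). Over the 30 chains tested in both sexes, the female difference was the larger one in 28. The fitted ventral excess was larger in males for 14.7% of the 34 chains, compared with 48.7% of all genes. In this test 0 markers of any list were called. The median log2 value was −0.95 for the chains, −1.63 for epicardial, −1.28 for lymphatic, −1.01 for blood endothelial and −0.96 for macrophage markers. It was −0.43 for fibroblast and −0.27 for ventricular muscle markers, and 0.15 to 1.24 for the other lists. Their part was not tested.

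Between males and females, with region as a covariate, 1 of 34 chains was called with a higher male level and 0 with a higher female level, compared with 4.40% and 6.54% of all genes (5 chains had an unadjusted p under 0.05, compared with 25.6% of all genes). The chain was Col4a3, at 17.5, 6.83, 31.9 and 31.03 in male ventral and 13.3, 8.18 and 30.7 in male dorsal libraries, against the female values of 6.65 to 12.4 and 3.27 to 5.38 (log2 difference 1.28, SE 0.36, adjusted p = 0.0313, 2.43-fold). Male values were spread, with both libraries of number 5 inside the female range, and the call held in 15 of 23 alternatives. The main fit treats the 2 libraries of a number as independent. With libraries of 1 number averaged, the call was lost and 0 chains were called. Its neighbour Col4a4 differed by 0.85 (adjusted p = 0.0876) and Col1a1 by 1.05 (adjusted p = 0.0529), neither of them called. In the same comparison 5 of 10 epicardial markers (median log2 difference 1.22), 1 of 8 fibroblast markers and 1 of 6 macrophage markers were called with a higher male level, and 0 markers of any list with a lower one. Their part in the Col4a3 difference was not tested. Male and female libraries form separate series of pool numbers, so sex and preparation cannot be told apart.

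Partner chains that enter the same trimer were then compared as ratios of levels per kilobase, for 6 pairs chosen after the values were seen and therefore given without a test. The ratio of Col1a1 to Col1a2 was 1.08, 1.04 and 0.963 in female ventral and 1.25, 1.46 and 1.16 in female dorsal libraries. In male ventral libraries it was 1.67, 1.80, 1.92 and 1.67, and in male dorsal libraries 1.97, 1.68 and 1.92. Every male library thus lay above every female one, although these come from only 4 male and 3 female numbers, and the library of unsettled region was at 1.94. Each sex is a separate series of pool numbers, so sex and preparation cannot be told apart here. The share of other gene pairs that separate the sexes was not taken. The sex difference of Col1a1 exceeded that of Col1a2 by 0.66 on the log2 scale, by 0.69 once a trend on GC content and length was removed from each library, and by 0.63 to 0.72 over all 23 alternatives. The transcripts have GC contents of 58.9% (Col1a1) and 55.7% (Col1a2). These alternatives reuse the same libraries, and the cause of the difference was not tested. For the other pairs the sexes overlapped. Within females, Col4a1 over Col4a2 was 1.06 to 1.51 ventrally and 1.74 to 1.77 dorsally, without overlap, and Col6a1 over Col6a2 was 1.18 to 1.46 in all 6 libraries. Col4a3 over Col4a4 was 0.246 to 0.468 ventrally and 0.454 to 1.12 dorsally, which overlap.

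**Figure D3:**
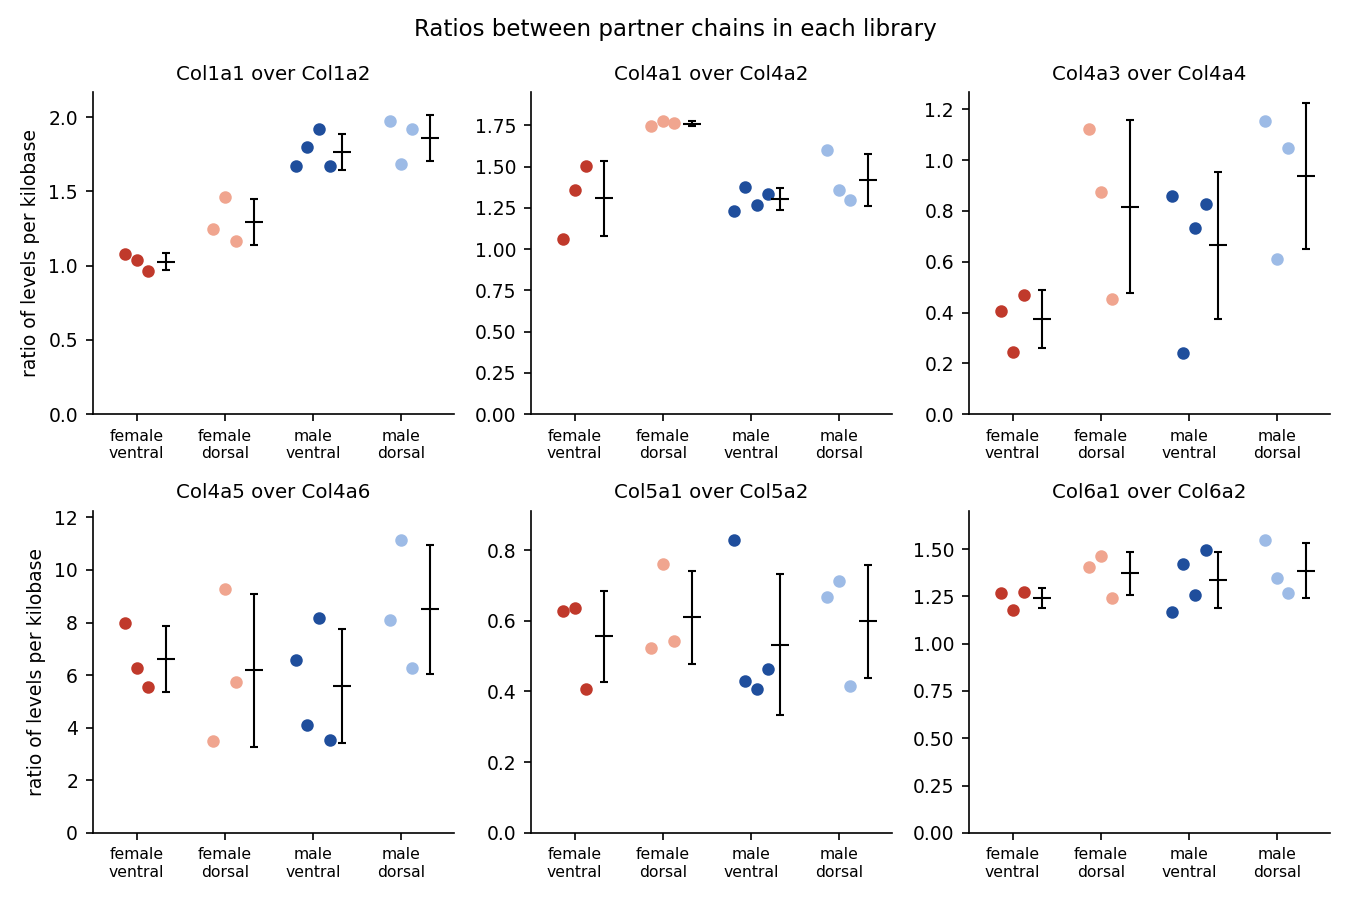
Ratio of levels per kilobase for 6 pairs of partner chains, with 1 point per library and, to the right of each group, its mean with the SD. For Col1a1 over Col1a2 the 7 male points lie between 1.67 and 1.97 and the 6 female points between 0.963 and 1.46.

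Summed over all 34 chains, collagen reached 11400.0, 20046 and 22119 normalized CPM in female ventral libraries and 3489, 2566 and 4330.5 in female dorsal ones. Male ventral libraries held 11019.7, 11764, 24474 and 17017, and male dorsal ones 6962, 10220.3 and 11356. Female dorsal libraries were the lowest of all, and the male groups overlapped. As a share of all values in the table, this was 1.12% to 2.18% in female ventral, 0.235% to 0.438% in female dorsal, 1.14% to 2.55% in male ventral and 0.688% to 1.08% in male dorsal libraries. Col1a1, Col1a2 and Col3a1 made up 80.8% to 84.4% of collagen in female ventral and 69.5% to 76.6% in female dorsal libraries. Basement membrane chains made up 4.18% to 6.95% against 9.36% to 14.8%, so that the ranges of these shares did not overlap between female regions. In males the corresponding ranges overlapped, with 2.60% to 7.13% ventrally and 4.21% to 7.83% dorsally for basement membrane chains. These shares are sums over the chains and are given without a test.

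**Figure D4:**
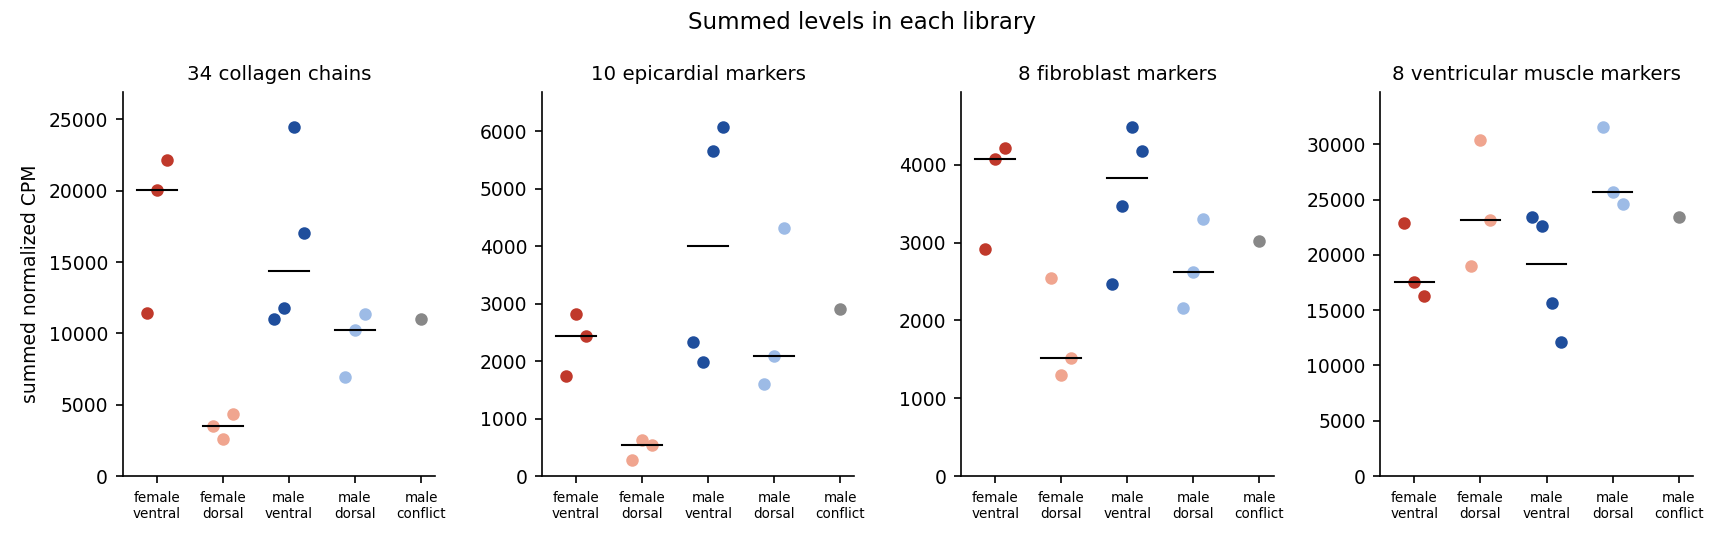
Summed normalized CPM of the 34 collagen chains and of 3 marker lists in each library, with a line at each group median. Female dorsal libraries are lowest for collagen and for the 10 epicardial markers, whereas the 8 ventricular muscle markers overlap between female regions.

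Genes whose products modify, fold, export, trim, cross-link or bind collagen moved less uniformly (values are means ± SD of 3 libraries a side). Abundance of these genes is ranked by the mean normalized CPM over all 13 libraries of known region. Unlike the chain levels, it is not divided by transcript length. Of 37 such genes in the table, 36 were tested in females, 15 were called higher ventrally and 2 lower, with a median log2 difference of 0.49, against 14.5% higher, 13.3% lower and a median of 0.01 over all genes. In males 0 of 37 were called, as 0% of all genes were. The region by sex test also called 0 of 37, compared with 2.73% of all genes. In that limma test 9 of the 37 had an unadjusted p under 0.05, compared with 2428 of 15772 genes. Among the 14 hydroxylases and glycosyltransferases, 3 were called higher and 1 lower. P3h3, named as a member of the prolyl 3-hydroxylase family, had the largest change (42.7 ± 10.1 ventrally and 9.93 ± 2.16 dorsally, log2 difference 1.99, SE 0.25, adjusted p = 0.000844). P4hb, the beta subunit of the prolyl hydroxylase that stabilises the helix, had the highest level (548 ± 75.3 ventrally and 418 ± 55.1 dorsally, log2 difference 0.39, SE 0.16, adjusted p = 0.106). Of the 6 folding and export genes, 3 were called higher, led by Mia3 (TANGO1), which loads procollagen at exit sites (84.98 ± 15.8 ventrally and 42.5 ± 11.6 dorsally, log2 difference 0.997, SE 0.21, adjusted p = 0.00802). Serpinh1, the collagen chaperone Hsp47, was the most abundant and did not pass the test (1883 ± 558 ventrally and 1896 ± 369.5 dorsally, log2 difference −0.037, SE 0.27, adjusted p = 0.933). Propeptide removal had 4 of 6 tested called higher and 1 lower, led by Bmp1, the C-proteinase of fibrillar procollagen (71.2 ± 16.3 ventrally and 27.2 ± 3.58 dorsally, log2 difference 1.34, SE 0.19, adjusted p = 0.00170). Its enhancer Pcolce was the most abundant (323 ± 77.7 ventrally and 170.2 ± 9.11 dorsally, log2 difference 0.89, SE 0.18, adjusted p = 0.00588).

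Of the 4 cross-linking oxidases, 3 were called higher, with Lox changing most (218 ± 87.1 ventrally and 59.6 ± 20.4 dorsally, log2 difference 1.83, SE 0.32, adjusted p = 0.00346). Loxl1 had the highest mean over the 13 libraries, 184 against 182 for Lox, without division by length (124 ± 25.2 ventrally and 41.7 ± 9.18 dorsally, log2 difference 1.55, SE 0.19, adjusted p = 0.000875 in females, below Lox on both sides). Between the sexes, 4 of the 37 genes were called with a higher male level (Loxl1, Pcolce, Fkbp10 and Plod1) and 3 with a lower one (P3h2, Mia2 and Itgb1), against 4.40% and 6.54% of all genes. The log2 difference of males from females was 1.70 for Loxl1 (adjusted p = 0.00125), 0.95 for Pcolce (adjusted p = 0.00322) and −0.59 for Itgb1 (adjusted p = 0.0128). Of the 6 receptor genes, 2 were called higher, led by Ddr2, a receptor kinase for fibrillar collagen (33.1 ± 1.59 ventrally and 13.3 ± 6.77 dorsally, log2 difference 1.34, SE 0.29, adjusted p = 0.00939), and Itgb1, the integrin beta subunit, was the most abundant (522 ± 52.2 ventrally and 697 ± 91.3 dorsally, log2 difference −0.41, SE 0.16, adjusted p = 0.0842). Named after their values were seen, the 2 genes called lower ventrally were Colgalt2, a collagen galactosyltransferase (log2 difference −1.39, SE 0.38, adjusted p = 0.0229), and Adamts3, an N-proteinase (log2 difference −1.05, SE 0.35, adjusted p = 0.0494).

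In the male library of unsettled region, number 7, the summed level of the 34 chains was 11005. Of the 23 chains called in females, it lay above every male dorsal library in 5 and below every male ventral library in 6. In those 5 the male groups overlapped. For Col1a2, Col16a1, Col6a2 and Col6a3 they did not, and there it lay within the dorsal range (2155, 23.3, 218 and 29.8). The same counts over all genes were not taken, and the region of this library was not tested. Taken as dorsal or as ventral, it left the number of chains called between male regions at 0.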

How the data were processed

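Per the labels and the study's methods, adapters were trimmed with Cutadapt, reads under 30 bases were discarded, and the 60-base single reads were quantified on the GRCm38 transcriptome with RSEM (1.3.1 in the labels). The authors normalized with limma. The deposited signal is a normalized CPM, which is reads plus 0.5 over a scaled library size, and columns sum to 960113 to 1089818. Whole reads were recovered for 100.0% of values (tolerance 0.02 reads). Strand use is not given in the sources used here. Gene positions came from GENCODE M21, which matched 15877 of 15894 genes (99.9%) and 34 of 34 chains.

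Groups were taken from the labels. Each comparison was fitted over all genes with at least 1 normalized CPM in at least 3 of its libraries with limma 3.58.1 (R 4.3.3) on log2(value + 1), moderated with a trend, with calls at an adjusted p (Benjamini-Hochberg) under 0.05. A fold change on this scale understates the change of low chains. Alternatives were a pseudocount of 0.1, no filter or a mean of at least 10, median-of-ratios scaling, edgeR 4.0.16 on the recovered reads, removal of a GC and length trend (splines with 5 degrees of freedom), each library left out, the library of unsettled region in either region, and the replicate number as a block. Scripts were tested on simulated data.

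Neither labels nor methods say what a number marks. Same-numbered ventral and dorsal libraries deviated together over 15772 genes (correlations of 0.187, 0.169 and 0.27 in female numbers 1 to 3, and 0.427, 0.175 and 0.351 in male numbers 4 to 6). Libraries of different numbers were not compared in this way. In the fit between the sexes, limma's own estimate of the correlation within a number was 0.0124. That the numbers pair the libraries is therefore an assumption, and blocked values are given beside results they change. Each library is a pool of 2 hearts. Every chain was described; chains called in a comparison were given by library, and in each role of the collagen synthesis list the called gene of largest female difference and the gene of highest level were named. The chains, lists and rules were chosen with earlier results of these data known.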

Additional observations from a re-analysis of the deposited data

Results flagged for a closer look

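The regional difference differed between the sexes, by limma's test of the difference itself, for 5 chains. The male minus female log2 difference was −1.39 for Col6a1 (adjusted p = 0.00799), −1.48 for Col6a2 (0.0083), −1.49 for Col5a1 (0.0107), −1.72 for Col14a1 (0.0152) and −1.23 for Col4a2 (0.043). In all 5 the female dorsal libraries lay below every male library. The test that picked these chains used the same values, and the share of all genes with this order was not taken. Sex and preparation cannot be told apart here, because each sex is a separate series of pool numbers.

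The male library of unsettled region, which entered the comparisons only as an alternative, held 32 of the 34 chains above 3 reads, the limit that a count of 0 allows. None of the 34 groups of 4 samples tested, 1 per chain in the male ventral libraries, held a library that stood apart by Dixon's rule.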

How the results depend on the processing

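The replicate number as a block raised the genes called between male regions from 0 to 76 and the chains from 0 to 1 (Col16a1), and the genes whose regional difference differed between sexes from 431 to 804, with 11 chains. With the GC and length trend removed as well, these were 43 genes and 0 chains between male regions, and 764 genes and 11 chains for the region by sex test. Beside the chains named in the text with blocked values, the block changed no other call of a chain. Removing the trend alone gave 1 male gene, and 19 female chains, the fewest of any alternative. Between the sexes, chains higher in males numbered 2 with a mean of at least 10, with the trend removed or with the unsettled library as dorsal, and 0 with libraries of 1 number averaged (944 genes called against 1726). Chains higher in females numbered 1 (Col15a1) with the trend removed or the unsettled library in either region.

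Leaving out 1 library at a time gave 2158 to 3845 female genes (lowest without female ventral 2, and 2291 without female dorsal 2) and 20 to 23 female chains, 0 to 12 male genes (12 without male dorsal 6, 1 without male dorsal 4), 260 to 447 genes and 3 to 8 chains for the region by sex test (260 without female dorsal 2, 267 without female ventral 2, 3 chains without female ventral 2 and 8 without male ventral 6), and 1303 to 1859 genes, 0 to 3 chains higher in males and 0 to 1 higher in females for sex. Female calls lost under some alternative were those of Col15a1 (8), Col4a3 (6), Col6a5 (6) and Col6a3 (4). Directions turned for chains that were not called. Female Col23a1 was −0.73 with edgeR and −0.28 to 0.85 with 1 library left out (below 0 without female dorsal 2 or 3). With the trend removed, male Col15a1 was −0.051, Col4a1 −0.082 and Col4a2 −0.032, and with block and trend Col4a3 was −0.033. With 1 male library left out, Col26a1 was −0.17 to 0.47 (below 0 without male dorsal 4), Col15a1 −0.23 to 0.38 (without male dorsal 5, dorsal 6 or ventral 4), Col4a1 −0.047 to 0.32 (without dorsal 6 or ventral 4) and Col4a3 −0.11 to 0.79 (without dorsal 5). The cause of these shifts was not tested. At 13.9 to 25.2 M reads, chains with few reads, such as Col6a4 and Col25a1, did not pass the filter on low values in the region comparisons.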
